A study of Malus domestica with 6 samples.

Results

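The windows described here are the 420 stretches of 100 bp in the deposited table of windows differentially methylated in the CG context between the red-flesh (RF) and white-flesh (WF) mesocarp of 'R201', a red-flesh apple cultivar. They make up 420 of the 898 entries in the 3 deposited tables, one for each cytosine context. The other entries are 227 CHG and 251 CHH windows, where H stands for A, C or T. The supplementary gene list of the study holds further CG windows, which are counted below for the part used here but not described. Every row of the CG table was kept, with no limit on the size of the difference, the p-value or the q-value.

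Methylation was measured by whole-genome bisulfite sequencing. Bisulfite turns cytosine without a methyl group into uracil, which is sequenced as thymine, and leaves methylated cytosine as it is. The labels give 3 RF and 3 WF samples, both taken from fruit of this cultivar at 84 days after full bloom (DAFB). RF and WF were areas of the same fruits, and the fruits of the different replicates came from different trees, which the submitters call semi-biological replicates. Both tissues therefore share 1 genotype. The methods name 2 and 3 replicates for the comparison, whereas each deposited row holds 6 libraries. These 6 libraries are numbered in the file headers without a tissue or a replicate. For this reason no level of RF or of WF, no direction of change and no test between the tissues is given here. Each level below is the pooled level, that is, the methylated calls as a percentage of all CG calls summed over the 6 libraries. Beside it stand the lowest, the median and the highest level among the 6 libraries, which mix the spread within a tissue with any difference between RF and WF.

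In plants, methylation of CG sites is copied to the new strand after replication by the MET1 methyltransferase, whereas CHG and CHH methylation depend mostly on chromomethylases and on RNA-directed DNA methylation. Transposons and other repeats usually carry methylation in all contexts. The bodies of many moderately expressed genes carry it in CG alone. In fruit, methylation of promoters has been studied in relation to ripening and to pigmentation genes.

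The CG windows had intermediate pooled levels. The median level was 50.2%, with quartiles of 39.9% and 60.6%, and the lowest and highest were 14.3% and 84.3%. The order-statistic 95% interval of the median was 47.8 to 52.0%. This interval treats the windows as independent and leaves out the spread among libraries. Leaving out each library column in turn gave medians from 47.2% to 53.6%, beyond it on both sides. A level from 20 to 80% was found in 416 windows (99%), a level under 20% in 2 and a level over 80% in 2. Between 40 and 60% lay 204 windows (48.6%). A window close to 0 or 100% in every library could not have passed the authors' minimum difference between the tissues, so the selection itself left out both ends of the scale. Its part in the few windows under 20% and over 80% was not tested. The level over all calls of the 420 windows was 49.9%.

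**Figure D1:**
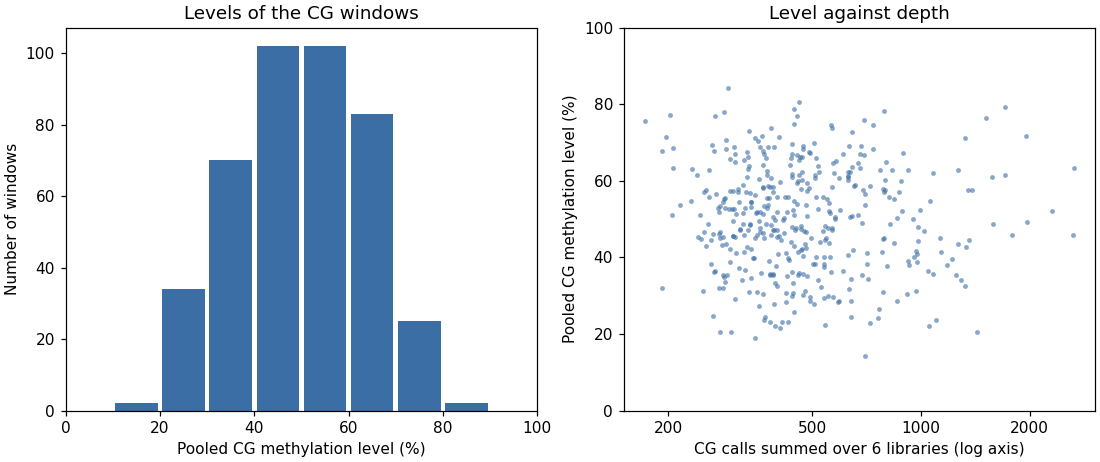
Left, number of CG windows (of 420) in each 10-point bin of the pooled CG methylation level in percent. Right, pooled level in percent against the CG calls summed over 6 libraries on a log axis, with 1 point per window. The 40 to 50% and 50 to 60% bins hold 102 windows each, and the cloud on the right shows no slope.

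The 420 windows held 228490 CG calls, of which 113909 were methylated. Between 32740 and 41594 of these calls came from each of the 6 libraries. A window had a median of 443.5 summed calls, with a lowest value of 173 and a highest of 2649. Calls are summed over all CG sites of a window, so they rise with the number of sites as well as with read depth. The sites of a window were not counted here, and depth below means the number of calls. The shallowest library of a window had a median of 50 calls and the smallest number in any library was 16. The half-width of the Wilson 95% interval of a pooled level had a median of 4.43 percentage points and ranged from 1.83 to 6.78. These intervals cover counting error only, and they are too narrow to the extent that several calls came from 1 read. Levels showed little relation to depth. The median level was 51.7% in the 105 shallowest windows (173 to 338 calls) and 50.2% in the 105 deepest (630 to 2649 calls), and Spearman's rho between calls and level over the 420 windows was -0.045.

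Levels differed widely among the 6 libraries of each window. The gap between the lowest and the highest library had a median of 43.6 percentage points and ranged from 29.6 to 97.1, and it was over 50 points in 102 windows. For comparison, a library with 74 calls, the median depth, and a level of 50% has a Wilson 95% interval of 38.9 to 61.1%, a width of 22.2 points. The gap was wider than this in 420 of 420 windows. Since the windows had been selected for a difference between groups of these libraries, a wide gap was required of them and is no finding. At least 1 library stood at 0% in 6 windows and at least 1 library at 100% in 5 windows.

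The highest pooled level, 84.3% (Wilson 95% interval 79.7 to 88.0), was measured at 15687601 to 15687700 on chromosome 7. Its 6 libraries ranged from 62.2% to 100% with a median of 90.1%, and 293 calls were summed. The paired gene model is MD07G1122300, annotated as a histidine kinase-like ATPase family protein, whose start lies 187 bp downstream of the window. Next came 80.7% (76.8 to 84.0) at 32723401 to 32723500 on chromosome 6, where the libraries ranged from 41.9% to 98.6%. Adjoining windows at 3183201 and 3183301 on chromosome 17 were also among the 5 highest, with 79.3% over 1709 calls and 78.2% over 788 calls. Their libraries spanned 36.5 to 96.5% and 43.0 to 91.6%. The remaining window of the 5, at 15460501 on chromosome 2, had 78.7% with libraries from 57.4% to 92.3%. The Wilson intervals of all 5 windows overlap, so their order is not resolved by the counts.

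At the lower end, the window at 10293601 to 10293700 on chromosome 3 had a pooled level of 14.3% (11.9 to 17.1) over 699 calls. In 3 of its 6 libraries no methylated CG call was counted, and the highest library reached 38.5%. The window at 9712501 on chromosome 1 followed with 19.0% (15.2 to 23.5) and libraries from 0 to 39.0%. Levels of 20.4%, 20.5% and 20.5% were measured at 768801 on chromosome 16, at 33647501 on chromosome 7 and at 5594301 on chromosome 9. In the chromosome 7 window 2 libraries were at 0%. The chromosome 9 window lies 1048 bp downstream of MD09G1079600, annotated as a late embryogenesis abundant (LEA) family protein, a class known for protecting cells during desiccation. The intervals of the last 4 windows overlap one another.

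The widest gap among libraries, singled out after its value was seen, was at 2512701 to 2512800 on chromosome 14. There the lowest library had 0%, the median was 56.1% and the highest library had 97.1%, with a pooled level of 57.1% over 252 calls. The window at 5044201 to 5044300 on chromosome 8, inside MD08G1064000, ranged from 15.2% to 90.9% around a median of 66.5%, and its pooled level was 48.8% over 258 calls. This gene model is annotated as 28S ribosomal RNA, a gene that plant genomes carry in many copies. How its reads were divided among copies was not analysed here. The narrowest gap, also singled out by its value, was 29.6 points, at 30748801 to 30748900 on chromosome 1 inside MD01G1214000, annotated as a hAT transposon family member. Its libraries ranged from 39.5% to 69.1%.

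The summed calls were uneven among the windows, and the number of CG sites in each was not known. In 47 windows the summed calls exceeded 2 times the median, and these windows held 26.9% of all calls. The deepest was the window at 12009001 on chromosome 16, with 2649 calls, 5.97 times the median, and a level of 63.3% (61.5 to 65.2). Next were 2625 calls at 13657201 on chromosome 14 (45.9%), 2308 at 7761601 on chromosome 7 (52.0%), 1964 at 22200701 on chromosome 7 (49.1%) and 1954 at 34013801 on chromosome 17 (71.9%). None of these 5 levels lay outside the range of 20 to 80%, which held 416 of all 420 windows. The shallowest windows had 173 calls at 15671101 on chromosome 3 (75.7%), 193 at 2972701 on chromosome 7 (67.9%) and also 193 at 52237801 on chromosome 15 (32.1%). Then followed 197 calls at 16830201 on chromosome 5 (71.6%) and 203 at 15086801 on chromosome 3 (77.3%). In the first of these the libraries ranged from 45.8% to 100% with a median of 79.4%, on 16 to 49 calls each.

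CG windows were listed on all 17 chromosomes and on unanchored sequence. Chromosome 3 had the most, with 35 windows, followed by chromosome 5 with 31 and chromosome 2 with 30, and chromosome 1 had the fewest with 15. On unanchored sequence there were 12. These counts take no account of chromosome length, since no genome was used here. The median pooled level of a chromosome ranged from 45.5% on chromosome 14 to 58.7% on chromosome 17. Within chromosomes the levels spread far more widely, for instance from 14.3% to 77.3% on chromosome 3 and from 20.5% to 84.3% on chromosome 7. On each of the 17 chromosomes CG windows outnumbered CHG windows, from 21 against 18 on chromosome 15 to 24 against 7 on chromosome 11. CHH windows outnumbered CG windows on chromosomes 10 (23 against 19) and 15 (23 against 21).

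**Figure D2:**
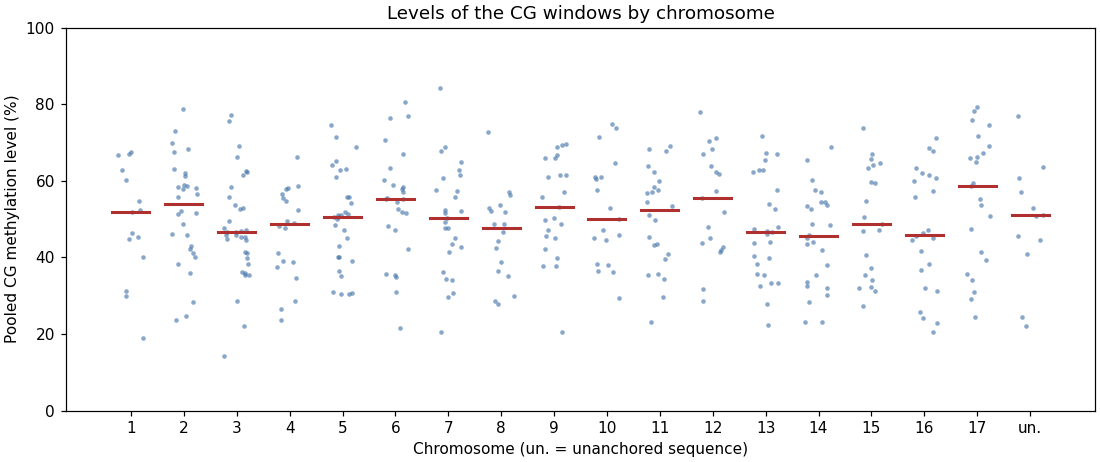
Pooled CG methylation level in percent of each of the 420 windows by chromosome, with un. for unanchored sequence. Each point is a window, spread sideways for legibility, and the red bar is the median, which lies between 45.5% (chromosome 14) and 58.7% (chromosome 17).

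Most CG windows stood alone. Joining windows that touch gave 385 intervals, of which 359 held 1 window, 20 held 2, 3 held 3 and 3 held 4. The 61 windows in joined intervals had a median level of 47.2% and 560 calls, and the 359 single windows 50.7% and 427 calls. The median distance between the starts of successive windows was 846 kb, and the largest was 12.2 Mb, on chromosome 17. Another CG window started within 10 kb of 116 windows (27.6%). The same count was 40 of 227 (17.6%) among CHG windows and 12 of 251 (4.78%) among CHH windows. A longer list gives closer neighbours by itself, so these shares are set side by side without a test. Touching windows differed in pooled level by a median of 8.54 points over 35 pairs, and 22 of the 35 pairs differed by at most 10 points. Successive windows that did not touch but started within 10 kb of each other differed by a median of 15.7 points, with 11 of 38 pairs within 10 points. Successive windows more than 10 kb apart differed by a median of 13.2 points, with 128 of 329 pairs within 10 points, so that the differences did not grow steadily with distance. Touching windows can share reads that cross their border.

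Runs of 4 touching windows, the longest, occurred on chromosomes 6, 7 and 12. On chromosome 6, from 32723201 to 32723600, the levels were 59.0%, 76.3%, 80.7% and 70.7% in order along the chromosome, from 656, 1517, 460 and 290 calls. This run lies 426 to 726 bp downstream of MD06G1190900, annotated as a basic helix-loop-helix (bHLH) DNA-binding protein. Proteins of this class bind DNA as dimers, and some of them act with MYB and WD40 proteins on flavonoid genes, although which role this gene has is not known from the files. The highest library in these windows had 87.1% to 98.6% and the lowest 25% to 41.9%. A further CG window followed at 32724601, 268 bp downstream of MD06G1191000, annotated as a pectinesterase, and had a level of 57.8%. The run on chromosome 7, from 12489301 to 12489700, was less methylated, with 30.7%, 41.3%, 36.2% and 34.3%. Its lowest libraries had 4.82% to 15.5%. On chromosome 12, from 26998501 to 26998900, the levels were 68.4%, 43.7%, 62.2% and 71.3%, so that the second window stood below all others of its run. Its Wilson interval, 39.7 to 47.9%, lay apart from the 58.4 to 65.9% of the next window. The library ranges of both windows, 16.1 to 65.1% and 25 to 83.0%, nevertheless overlapped.

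Runs of 3 windows, described after their values were seen, lay on chromosomes 5, 13 and 17. The run on chromosome 5, from 5472601 to 5472900, lies inside MD05G1034200, annotated as choline kinase 1, an enzyme of phospholipid synthesis. Its levels were 30.4%, 39.1% and 63.1%, a span of 32.6 points within 300 bp, the widest among the 6 runs of 3 or 4 windows. On chromosome 17, from 34013601 to 34013900, they were 66.0%, 59.4% and 71.9%.

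**Figure D3:**
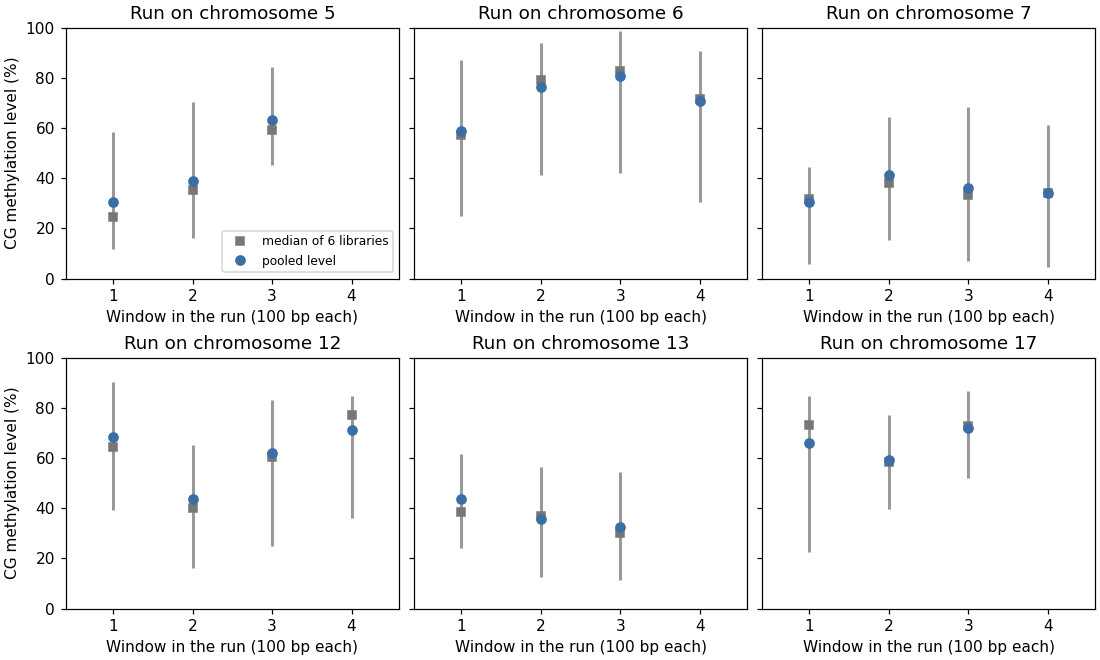
CG methylation level in percent in the 6 runs of 3 or 4 touching windows, 1 panel per run, with the windows in order along the chromosome. Blue circles are pooled levels, grey squares the median and grey bars the lowest to the highest of 6 libraries. The run on chromosome 6 reaches 80.7% and the run on chromosome 7 stays between 30.7% and 41.3%.

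The densest 10 kb of CG windows lay on chromosome 13, where 6 windows fell between 7403501 and 7405700. The 3 windows on the left had 67.0%, 71.6% and 46.7%. The touching windows on the right, which form the run of 3 on this chromosome, had 43.7%, 35.6% and 32.6% over 840, 1080 and 1325 calls. The Wilson intervals of the first pair, 61.5 to 72.0% and 66.8 to 76.0%, lay apart from those of the last pair, 32.8 to 38.6% and 30.1 to 35.2%. These intervals cover counting error only, and both pairs were singled out by their values. The libraries of the first pair ranged from 37.8 to 89.4% and from 35.3 to 91.5%. Those of the last pair ranged from 12.6 to 56.4% and from 11.3 to 54.3%, so the library ranges overlapped. Of these 6 windows, 4 were also listed in CHG and none in CHH.

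A minority of the CG windows were listed in a second context. The same window was also in the CHG table for 54 (12.9%, Wilson 95% interval 9.99 to 16.4) and in the CHH table for 11 (2.62%, 1.47 to 4.63). Of all CHG windows, 23.8% were shared with CG, and of all CHH windows 4.38%. Only CG was listed for 357 windows (85.0%). Whether a window had enough CHG or CHH cytosines to be listed was not analysed here. The windows shared with CHG had a median of 568 CG calls, against 430 in the 366 windows that were not. Their median pooled levels were 50.2% in both groups. Of the 61 windows in joined intervals 17 (27.9%) were shared with CHG, and of the 359 single windows 37 (10.3%).

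In the 54 windows listed in both CG and CHG, the pooled CG level was higher in 40. The CG minus CHG difference had a median of 6.08 points, quartiles of -0.017 and 11.2 and a range from -28.2 to 29.7. The medians were 50.2% for CG and 44.6% for CHG. Across these windows Pearson's r between both levels was 0.71 and Spearman's rho 0.68, given as a description since the same reads supply both contexts. The CG level exceeded the CHG level most at 17775401 on chromosome 6, with 52.7% of 520 CG calls and 23.0% of 457 CHG calls. It fell short most at 33796401 on chromosome 5, with 30.7% of 443 CG calls against 58.9% of 282 CHG calls. Both of these windows were singled out by their values. In the run on chromosome 17 from 34013601, 2 of the 3 windows were shared, with CG and CHG levels of 66.0% and 61.5% in one and 59.4% and 60.2% in the other.

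Of the 11 windows listed in CG and CHH, 6 had the higher level in CG, and the difference ranged from -14.5 to 15.1 points. CHH calls numbered 1539 to 2772 in these windows, against a median of 568 and an upper quartile of 1178 over all CHH windows. The CG levels of the 11 windows ranged from 23.2% to 65.4% and the CHH levels from 21.8% to 62.8%. CG, CHG and CHH were all listed at 2 windows. At 11903801 to 11903900 on chromosome 11 the levels were 39.5% (CG), 39.1% (CHG) and 34.1% (CHH). At 494001 to 494100 on chromosome 15 they were 27.2%, 44.6% and 35.3%, with CG the lowest of the 3. Over all windows of each table the median pooled level was 50.2% in CG, 48.1% in CHG and 42.9% in CHH. The order-statistic intervals of these medians were 47.8 to 52.0%, 45.8 to 51.2% and 40.8 to 45.1%. They treat windows as independent, although all windows come from the same libraries and some share reads. The 3 medians were therefore not compared by a test. These values describe windows selected for a difference and are no estimate of methylation in the genome.

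**Figure D4:**
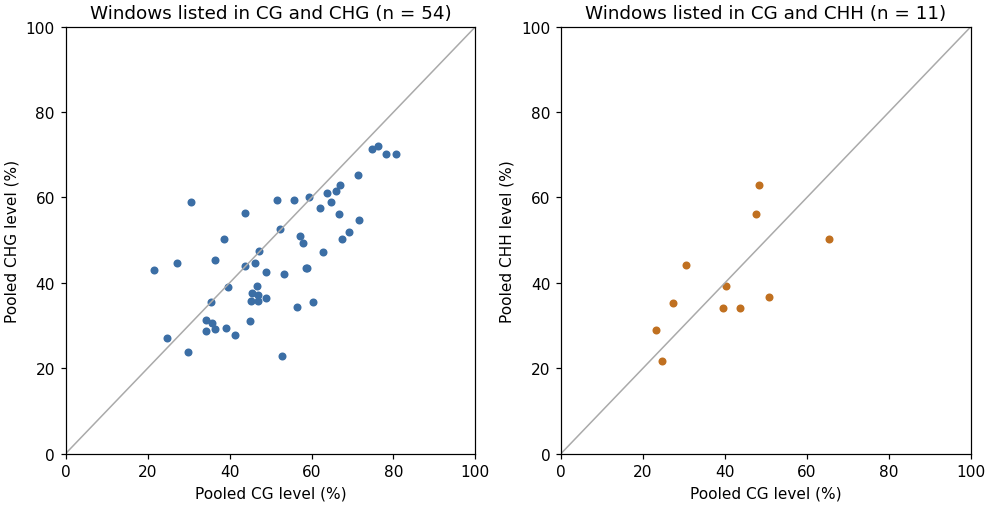
Pooled CHG level (left, 54 windows) and pooled CHH level (right, 11 windows) on the vertical axis against the pooled CG level of the same window, all in percent, with 1 point per window. The grey line marks equal levels. Of the 54 windows on the left 40 lie below the line, and of the 11 on the right 6.

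A nearest gene was at hand for 109 CG windows, through the part of the study's gene list used here. That part reaches from unanchored sequence through chromosome 9 up to about 15 Mb and covers 228 of the CG windows, so that 109 of 228 (47.8%) were paired, with 96 different genes. The header of the list names 5 libraries, whereas the deposited table has 6, and 157 of the 266 CG windows in that part match no deposited CG window. The other 119 deposited windows in its reach were not in it, and the 192 windows beyond it were not placed. Pairing therefore follows membership of the list and not only distance to a gene. Of the 119 unpaired windows, 1 lies inside a gene model that the list gives for another window and 3 lie within 2 kb of such a model. Every paired window lay within 2 kb of its gene, the farthest at 1882 bp. Whether the list itself had been limited by distance was not tested, so the shares that follow describe listed pairs only. Of the 109, 40 (36.7%) shared at least 1 base with the gene, 33 (30.3%) lay upstream of its start and 36 (33%) downstream of its end. Upstream windows lay a median of 978 bp from the gene and 9 of the 33 lay within 500 bp. Downstream windows lay a median of 698 bp away, with 12 of the 36 within 500 bp. Median levels were 50.1% inside, 50.1% upstream and 48.0% downstream, over ranges of 22.1 to 77.3%, 23.6 to 84.3% and 20.5 to 80.7%. The levels of the 3 positions thus overlapped almost completely. The unpaired windows on the same sequence had a median level of 51.7% and 386 calls, against 49% and 465 calls in the paired ones. Exons, introns and UTRs were not resolved.

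**Figure D5:**
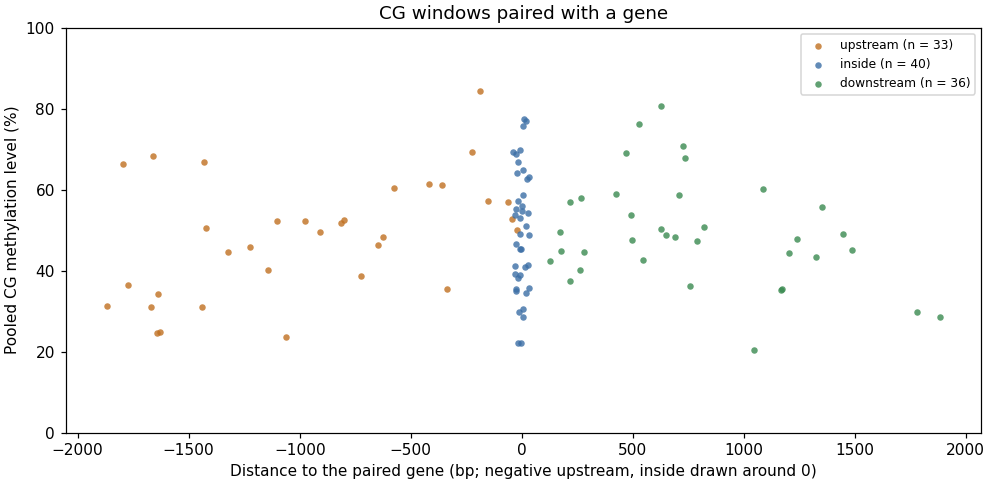
Pooled CG methylation level in percent of the 109 windows paired with a gene against the distance to that gene in bp, negative upstream of the start and positive downstream of the end. The 40 windows inside genes are drawn around 0. The levels of the 3 positions cover the same range.

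At 9 genes more than 1 CG window was paired. The most was 4, at the bHLH gene MD06G1190900. At MD06G1122900, annotated as a brassinosteroid-responsive RING-H2 protein, 3 windows lay 688 to 1088 bp downstream with levels from 47.2% to 60.3%. RING-H2 proteins are ubiquitin ligases, and brassinosteroids are growth hormones. MD05G1172400, annotated as RPM1-interacting protein 4 (RIN4), had 2 windows 1672 and 1772 bp upstream, at 31% and 36.4%. RIN4 is guarded by disease resistance proteins in Arabidopsis. At MD03G1106700, of unknown function, 2 deep windows 1224 and 1324 bp upstream had 45.9% of 1783 calls and 44.6% of 1357 calls. MD08G1031900, annotated as a flavodoxin and radical SAM protein, had 29.8% and 28.5% in windows 1782 and 1882 bp downstream. Inside MD03G1141900, annotated as an AAA-type ATPase, the levels were 62.7% and 77.3%. MD04G1227900, annotated as an SSXT family protein, had 48.3% and 38.7% at 624 and 724 bp upstream. The nearer window was also listed in CHH, where its level was 62.8%, and the farther one in CHG, with 50.3% of 487 calls. The remaining genes with several windows are choline kinase 1, described with the runs, and a phosphate transporter described with the transport genes.

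By words in the gene annotation, 32 of the 109 paired windows fell into the groups that had been listed, and 14 had no annotation text. Genes of the same kinds whose annotation uses other words were not counted. Genes other than the highest and lowest of a group were added after their values were seen. Words for kinases, receptors and disease resistance were found at 10 windows of 8 genes, with levels from 22.2% to 84.3% and a median of 42.2%. The word kinase also brought in choline kinase and a cyclin-dependent kinase. It likewise brought in the histidine kinase-like ATPase gene MD07G1122300, which has the 84.3%, whereas the next highest level of the group was 69.0%. The lowest level of the group was 22.2% of 396 calls in a window that overlaps the start of MD03G1054400, an NB-ARC gene of the class that recognises pathogen effectors. Its libraries ranged from 6.67% to 38.0%. Another NB-ARC gene, MD02G1277200, had 24.8% of 266 calls in a window 1628 bp upstream, with libraries from 5.17% to 50%. Both NB-ARC windows were below the lower quartile of all CG windows, 39.9%. The first was named as the lowest of the group and the other after its value was seen. No pattern of NB-ARC genes is drawn from these 2 windows. MD02G1249200, annotated as a lectin protein kinase, had 40.1% at 1141 bp upstream, and MD05G1080300, a leucine-rich repeat (LRR) gene, 69.0% at 469 bp downstream.

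Transcription and signalling words were found at 8 windows of 5 genes, with a median of 58.0%. This median leans on 1 gene, since 4 of the 8 windows are the run at MD06G1190900, whose levels all exceeded those of the other 4 genes. The highest level here was the 80.7% near MD06G1190900, described above, and the lowest was 35.4%, at 336 bp upstream of MD03G1214000, a zinc finger gene. MD01G1089300, another bHLH gene, had 52.5% at 799 bp upstream with libraries from 34.6% to 66.3%. A window 61 bp upstream of MD09G1038100, a gibberellin-regulated gene, had 57.0% with libraries from 36.2% to 76.7%. It was the closest to a start among the upstream windows of this group. The words did not match every gene of this kind. Among those missed, MD08G1024200, annotated as a BEL1-like homeodomain protein, had 42.4% at 125 bp downstream. MD01G1197600, annotated as FAR1-related, had 31.2%. The brassinosteroid-responsive RING-H2 genes MD06G1088300 and MD06G1122900 had 35.4% and 47.2% to 60.3%. The median of 58.0% therefore holds for the matched windows only.

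Transport genes were named at 6 windows of 5 genes, with levels from 22.1% to 66.8%. Touching windows inside MD00G1008800, annotated as a phosphate transporter on unanchored sequence, had 41.0% of 975 calls and 22.1% of 1052 calls. A window 215 bp downstream of MD00G1039400, a MATE efflux gene, had 57.1%, with libraries from 35.7% to 81.8%. MATE proteins move organic compounds across membranes, and some carry flavonoids into the vacuole. MD02G1113800, an auxin efflux carrier gene, had 38.3% inside the gene and counts in both this group and the previous one. The highest level of the group, 66.8%, was 1430 bp upstream of the amino acid transporter gene MD09G1051600.

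Words of phenolic and secondary metabolism were found at 2 windows. A window 178 bp downstream of MD03G1019100, a UDP-glycosyltransferase gene, had 44.9% of 247 calls, with libraries from 16.7% to 60%. Enzymes of this class attach sugars to small molecules, anthocyanins among them, but the substrate of this gene is not given. The other window, inside MD03G1116100, had 45.4%. This gene entered the group by the word dehydrogenase and is annotated as isovaleryl-CoA dehydrogenase, an enzyme of leucine breakdown. The words missed MD05G1335000, annotated as terpene synthase 14, with 50.1% of 577 calls in a window 22 bp upstream. They also did not cover MD03G1259400, annotated as a 2-oxoglutarate and Fe(II)-dependent oxygenase, whose substrate is not given. The window inside this gene had 53.8% of 699 calls. Cell wall words were found at 4 windows, from 46.4% near the glycosyl hydrolase gene MD01G1134200 to 60.4% near MD01G1220700, an invertase and pectin methylesterase inhibitor gene. Words for RNA genes and repeats were found at 3 windows, all inside the gene. The levels were 48.8% in the ribosomal RNA gene MD08G1064000, 54.8% in the hAT transposon MD01G1214000 and 68.9% in MD09G1156100. MD09G1156100 entered by the words mobile domain and is annotated as an aminotransferase-like, plant mobile domain family protein, not as a repeat. The annotation groups are small and overlap in level, and no group was compared with another by a test.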

How the data were processed

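DNA of RF and WF mesocarp was analysed by the authors by whole-genome bisulfite sequencing. Per the labels and methods, reads were trimmed with Trimmomatic 0.39, aligned with Bismark 0.24.0 and Bowtie2 to the GDDH13 v1.1 apple genome and deduplicated. methylKit 1.26.0 then summed calls in 100 bp windows covered in all libraries and kept windows past the authors' limits of difference and q-value. The deposited counts are raw methylated and unmethylated calls per window and library, without normalisation. The deposited difference, p-value and q-value columns hold the authors' own comparison and were not used. Only listed windows were at hand, so nothing is said of the rest of the genome.

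The 6 numbered libraries were used as a sum, a range or a median over all 6, and among the alternatives as a mean of library percentages and with each column left out in turn, never by tissue, and no 2 of them had identical counts. Wilson 95% intervals and order-statistic intervals were computed with SciPy 1.17.1 in Python 3.11.15 with pandas 2.3.3 and numpy 2.4.6. The functions were tested on simulated data in which the libraries of a window shared the same level and calls were independent. That test checks the computation only, since the real libraries differed widely in level. Gene models and annotations of GDDH13 v1.1 came from 266 rows of the paper's supplementary gene list, which was made from 5 libraries and matches 109 of the deposited windows, and distances were recomputed from their coordinates between nearest edges. No sequence is printed, because no genome of this build was used. The windows named are the 5 highest and lowest levels, the 5 deepest and shallowest, the longest runs, the densest 10 kb, windows listed in 3 contexts and, by annotation word, the highest and lowest of each group. Members and lists were chosen with earlier results of these data known.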

Additional observations from a re-analysis of the deposited data

How the results depend on the processing

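Of 39 alternative settings over 10 results, 26 stayed within the 95% interval of a median or share or, for numbers of windows and intervals, within 1.5 times the number. The median pooled level was 49.6% to 50.1% with a minimum of 200, 300 or 500 calls or without unanchored sequence, and 49.9% as the mean of library percentages. Leaving out each library column in turn gave medians from 47.2% to 53.6%, and median summed calls from 361.5 to 379.5 against 443.5, as 1 library fewer was summed. Class limits of 30 and 70% put 85.0% of windows in the middle class by construction. CG windows with a CHG or CHH window starting within 1000 bp numbered 98, against 63 at the same position. Among windows of at least 500 calls the shared share was 23.8%, against 15.0%, and the cause was not tested. A flank of 1000 bp, which can only lower the number, left 17 upstream windows of 33. No paired analysis was possible because nothing in the headers ties a numbered library to RF, WF or a replicate. The limits are the missing tissue labels, the selection of the windows by the authors, the part of the gene list used, and library depths down to 16 calls.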
